A study of Mus musculus with 18 samples.

Results

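Baseline levels of inflammation genes were compared between the muscles of control mice from 2 cancer cachexia models, LLC and KPP. Cachexia is a wasting of muscle and fat in cancer patients and tumor-bearing animals. The 6 control samples, 3 for LLC and 3 for KPP and lettered A to C in each, are part of a series of 18 samples of tibialis anterior (TA) muscle, a fast muscle of the lower leg, taken from male mice. All 6 are labelled C57/B6 and without tumor. In the LLC model tumor-bearing mice received injected Lewis lung carcinoma cells, and in the KPP model tumors were started in KPP mice by intraperitoneal tamoxifen. The alleles that KPP stands for, the ages, whether control mice received tamoxifen or a sham injection, and whether each sample is a separate mouse were not stated in the labels. The 3 LLC and 3 KPP tumor-bearing samples, also C57/B6 males, serve as a second comparison of the models. Each model was deposited on its own scale. Because each model also has its own control group, model, measurement run and any difference of genotype or age cannot be told apart. The p-values measure only the spread between these samples.

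Of the 254 genes of the panel, 72 had a deposited mean of 100 or more in both control groups, and 68 of these are inflammation genes and 4 housekeeping genes. Levels are given as a percent of the geometric mean of Cltc, Gapdh, Gusb, Hprt, Pgk1 and Tubb5 in the same sample, called the housekeeping mean below. A deposited 100 is 16.9% of that mean in LLC but 5.65% in KPP, so the filter was stricter for LLC. It left out 44 genes for LLC alone, none (0) for KPP alone and 136 for both. The genes just inside were Tyrobp, Smad7 and Nod1, with deposited LLC means of 102, 103 and 106, and those just outside were Relb, C1qb and Mafg, at 100.0, 98.9 and 98.2. With the LLC relative threshold applied to both groups, 66 of the 68 genes stay and Il1r1 and Rps6ka5 drop out.

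Muscle at rest holds few immune cells, and much of its inflammatory signaling capacity lies in the fibers and in the fibroblasts, vessels and macrophages between them. A first layer of this system is complement, a cascade of serum and tissue proteins in which C1q, C1r and C1s start the classical route and C3 is the hub. Behind receptors for cytokines and microbial products lie the MAP kinases, NF-kB and STAT factors, while small GTPases shape the cytoskeleton.

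The depth of the libraries differed. The counts behind the gene values were 49808 to 91064 in the LLC controls and 61268 to 218668 in the KPP controls, where sample B was the shallowest. A deposited value of 100 rested on 85.4 to 150 counts in LLC and on 31.0 counts in KPP control B, against 114 and 110 in KPP controls A and C. The counting error at that value was therefore 8.17% to 10.8% in LLC and 17.95% in KPP control B. These errors are at unlike levels, since a deposited 100 is 16.9% of the housekeeping mean in LLC and 5.65% in KPP. The lowest deposited KPP mean of the 68 genes was 261, for Il1r1. LLC values are never below 20, and 112 panel genes stood at 20 in all 3 LLC controls, whereas low KPP values reach 1, which a background subtraction would give. All 68 genes lay above 20 in every control sample. Housekeeping genes, which set the scale, were not equally placed. Tubb5 was at 26.9%, 33.7% and 38.9% of the housekeeping mean in LLC and at 28.8%, 18.7% and 19.8% in KPP, a log2 difference of -0.57, while Cltc differed by 0.28 and the other 4 by -0.03 to 0.15.

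Genes that mark cell types were read as a check of the tissue. Mef2c, Mef2d and Hspb2, which muscle fibers express, were among the 12 strongest inflammation genes in both groups, and Gapdh, a glycolytic enzyme, was the strongest of the housekeeping genes. Of the other fiber markers, Mef2a was at 10.8% of the housekeeping mean in LLC and 12.3% in KPP and Myl2 at 8.63% and 33.5%, both under the filter in LLC. All 4 neutrophil and all 7 lymphocyte markers of the panel were at the lower limit of 20 in every LLC control. The 10 macrophage and monocyte markers summed to 98.3% to 113% of the housekeeping mean in LLC and to 84.4% to 147% in KPP, and Trem2 and Cd86 among them were at the limit in LLC. In whole muscle, fewer cells of a type and less RNA per cell cannot be told apart.

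The order of signal was nearly the same in both groups. Gnas, which encodes the stimulatory G protein alpha subunit, gave the strongest signal in both, at 801% ± 25.6 (SD, n = 3) of the housekeeping mean in LLC and 961% ± 52.5 in KPP. Next came Mef2c, a transcription factor of muscle differentiation, at 489% ± 15.2 and 404% ± 45.7, and Cdc42, a small GTPase, at 458% ± 21.3 and 551% ± 50.3. The GTPase Rac1 stood at 292% ± 28.0 and 375% ± 22.6. Hspb1, a small heat shock protein, and Mapkapk2, a kinase downstream of p38, filled ranks 5 and 6 in both groups in either order, and Rhoa had rank 7 in both. Probes bind with different efficiency, so this is an order of signal and not of transcript number.

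The 68 genes spanned 17.3% to 801% in LLC with a median of 51.2%, and 14.7% to 961% in KPP with a median of 56.0%. The top 10 genes held 50.6% of the summed signal in LLC and 49.9% in KPP. Across genes, which are not independent replicates, the group means on the log2 scale had a Pearson correlation of 0.98 and a Spearman correlation of 0.965. The top 10 shared 8 genes, the top 20 shared 19 and the top 30 shared 26. Rank moved by 5 places or fewer for 51 of the 68 genes.

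**Figure D1:**
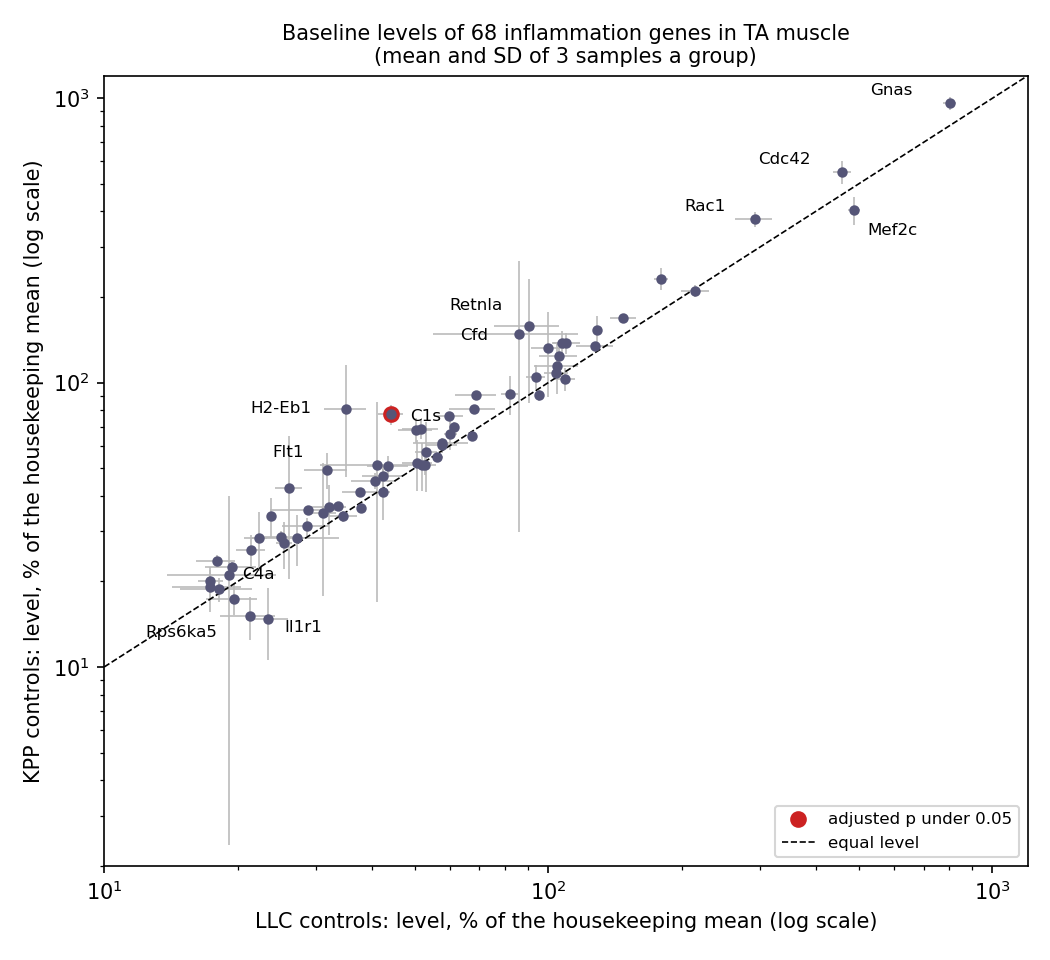
Each point is 1 of the 68 inflammation genes, with its mean level in 3 LLC controls (horizontal, % of the housekeeping mean, log scale) and in 3 KPP controls (vertical, same unit, log scale), and lines for 1 SD. Points lie along the line of equal level from 17.3% to 961%, with H2-Eb1 and C1s (red ring) above it and Il1r1 and Rps6ka5 below it.

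The larger changes of rank belonged to a few genes. H2-Eb1, a chain of the MHC class II molecule that presents antigen, went from rank 45 in LLC to 23 in KPP. C1s went from 37 to 25 and Retnla, a secreted protein of alternatively activated macrophages and fat, from 19 to 8. Cfd went from 20 to 10 and Ccl21a from 54 to 44. In the other direction, the interleukin-1 receptor Il1r1 went from rank 58 to 68. Ranks use group means, and the KPP mean of Cfd was raised by KPP control A, at 285%. The median level of Cfd was 92.9% in KPP and 102% in LLC.

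The test of each gene asked whether controls of the 2 models share a baseline. It was fitted with limma across 118 genes, the 68 and 50 others above 20 in all 6 samples, with Benjamini-Hochberg adjustment over all 118. At an adjusted p of 0.05 it called 2 of 118 genes, 1.69%, and 1 of the 68, C1s, which was higher in KPP. At an unadjusted p under 0.05 it gave 18 of the 68, 15 higher and 3 lower in KPP, which is 26.5% against 24.6% of all genes tested. The 3 samples of one group lay wholly above the 3 of the other for 28 of the 68, 24 of them higher in KPP, which is 41.2% against 33.9% of all genes tested.

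Most differences were small. KPP was higher for 53 genes and lower for 15, and the median log2 difference, KPP minus LLC, was 0.16, a ratio of 1.11, the same as over all 118 genes. The difference was under 0.5 in size for 59 of the 68. The limma 95% interval stayed within a 1.5-fold difference in either direction for 42 genes and within 2-fold for 59, with a median distance of 0.29 from the estimate to either end. The general shift depends on the scale. Without Tubb5 in the housekeeping mean the median fell to 0.04 with 43 genes higher, and with each sample centred on its median it was -0.06 with 27 higher. Across 9 other scalings 34 genes kept their direction, 25 higher and 9 lower in KPP, and the rest changed sign or reached 0 in at least 1.

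**Figure D2:**
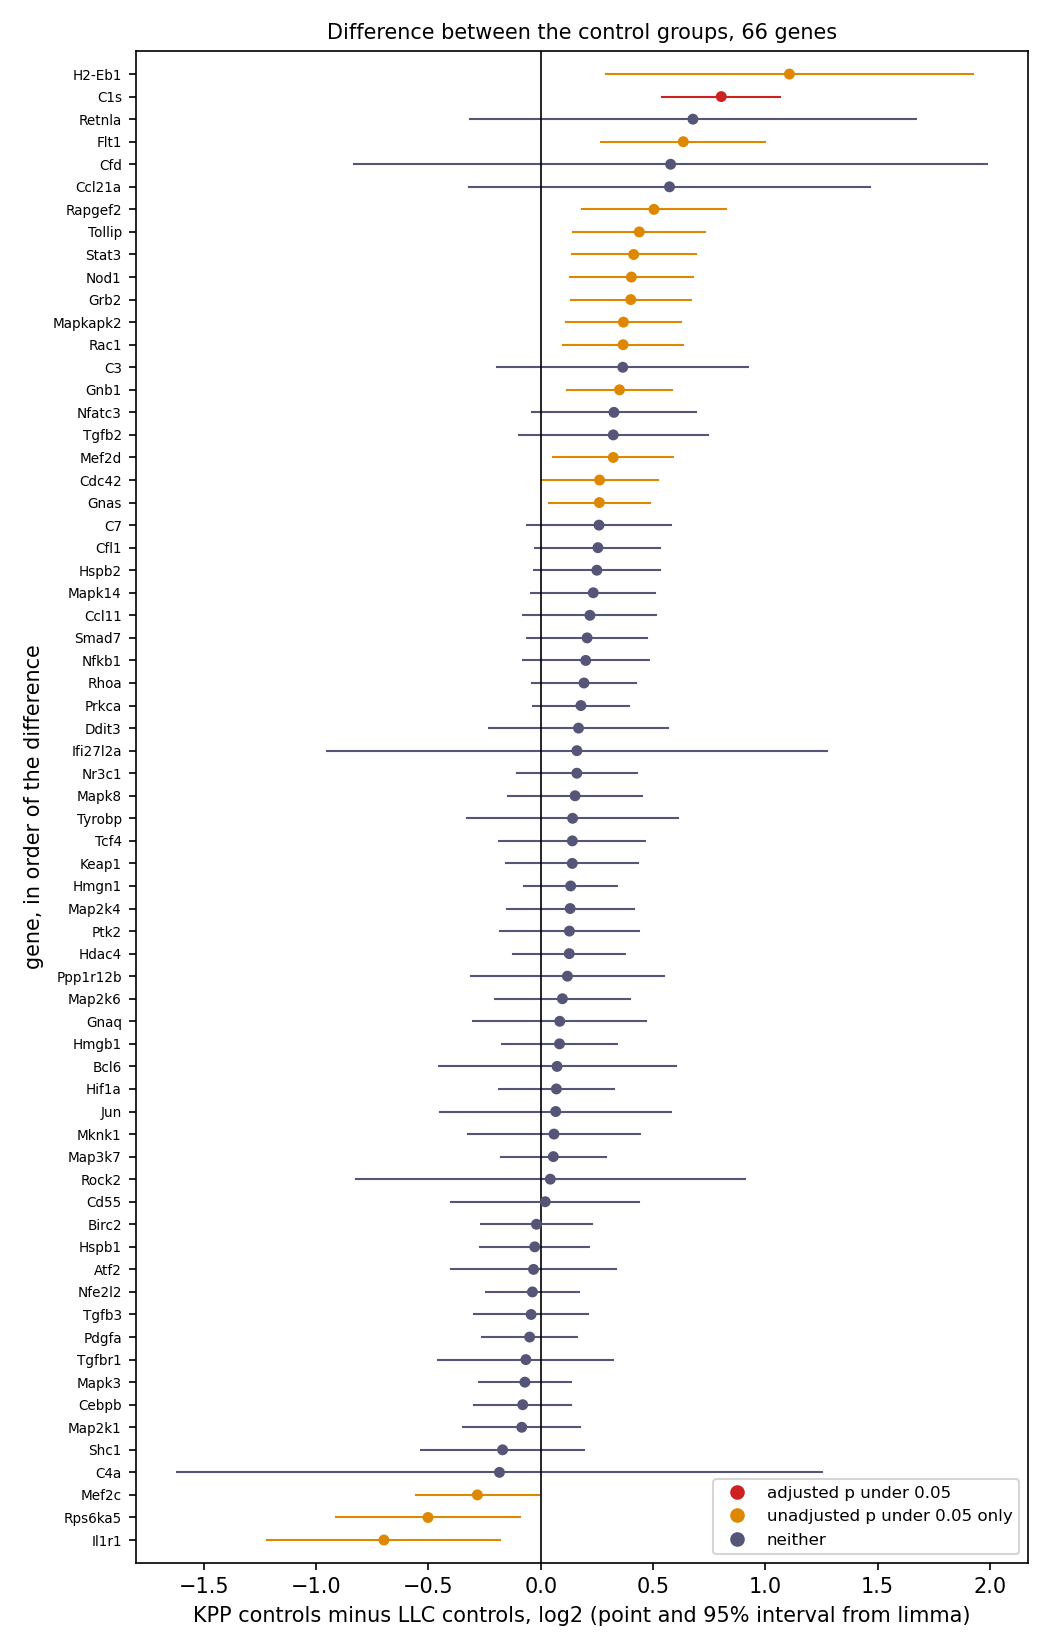
Points give the log2 difference KPP controls minus LLC controls for 66 of the 68 genes (horizontal, limma estimate with its 95% interval, 3 samples a group), in order of size (vertical). C1s (red) has an adjusted p under 0.05, 16 other genes (orange) have an unadjusted p under 0.05, and the wide intervals of H2-Eb1, Retnla, Cfd, Ccl21a, Ifi27l2a and C4a go with their spread among KPP controls.

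Complement held the 2 genes called. C1s encodes the protease that cleaves C4 and C2 in the classical route. Its level was 41.1%, 46.9% and 44.7% of the housekeeping mean in LLC controls A, B and C and 83.3%, 70.8% and 77.9% in KPP controls A, B and C. All KPP controls lay above all LLC controls. The log2 difference was 0.80 ± 0.108 (SE), a ratio of 1.75 with a 95% interval of 0.54 to 1.07 on the log2 scale (limma adjusted p = 0.0152). C1ra encodes the protease that activates C1s, and was too low in LLC to be among the 68. It stood at 6.105%, 6.53% and 7.18% in LLC and at 11.97%, 11.8% and 11.8% in KPP, a log2 difference of 0.85 ± 0.099 (SE; limma adjusted p = 0.0134). KPP controls were again all higher. With the levels so near the LLC limit the size for C1ra varied, from 0.38 with a pseudocount of 20 to 1.72 with 20 subtracted from LLC values. Its call was lost without Tubb5 in the scale (limma adjusted p = 0.0794), with the pseudocount of 20 (limma adjusted p = 0.0606), with 12 samples in the fit (limma adjusted p = 0.0832) and without LLC control B or KPP control C (limma adjusted p = 0.0701 and 0.107). The C1s call was lost without Tubb5 in the scale (log2 difference 0.69, limma adjusted p = 0.0794) and on leaving out any LLC control or KPP control C (limma adjusted p = 0.0513 to 0.107). Both calls were also lost with all 18 samples in the fit (limma adjusted p = 0.446 for each gene). The same held with the sample letter as a replicate block (limma adjusted p = 0.0842 for each gene).

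C1ra and C1s1, the current symbol of C1s, are neighbours on mouse chromosome 6, and H2-Eb1, the gene with the largest difference among the 68, lies on chromosome 17. Close copies named C1rb, C1s2 and H2-Eb2 exist near them, and without the probe sequences signal from a copy cannot be told apart. The 250 bases before a RefSeq start of each gene are shown because C1s and C1ra were both called and H2-Eb1 differed most among the 68. They are from assembly GRCm38.p6 and are written 5′ to 3′ on the strand of the gene. C1s1 lies on the minus strand (chr6:124542360-124542609, 1 of 2 starts listed), C1ra on the plus strand (chr6:124512371-124512620) and H2-Eb1 on the plus strand (chr17:34305617-34305866). Capitals mark the motif CCAAT, searched on both strands, so that ATTGG is its match on the other strand.
C1s1: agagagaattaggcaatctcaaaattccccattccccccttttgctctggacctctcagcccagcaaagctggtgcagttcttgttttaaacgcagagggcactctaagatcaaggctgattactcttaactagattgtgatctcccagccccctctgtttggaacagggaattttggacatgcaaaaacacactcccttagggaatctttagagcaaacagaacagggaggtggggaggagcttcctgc
C1ra: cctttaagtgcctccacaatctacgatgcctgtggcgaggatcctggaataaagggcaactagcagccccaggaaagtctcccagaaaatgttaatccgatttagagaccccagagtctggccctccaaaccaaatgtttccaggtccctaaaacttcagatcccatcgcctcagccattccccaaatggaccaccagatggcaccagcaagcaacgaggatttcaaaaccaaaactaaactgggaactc
H2-Eb1: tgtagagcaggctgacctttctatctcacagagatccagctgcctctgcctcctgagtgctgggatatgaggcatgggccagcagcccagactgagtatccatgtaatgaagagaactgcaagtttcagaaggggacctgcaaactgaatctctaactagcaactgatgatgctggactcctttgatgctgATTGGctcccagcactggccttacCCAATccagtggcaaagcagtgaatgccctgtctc
CCAAT was found in the H2-Eb1 window once on each strand and in neither of the others, and 33.8% of 32851 promoter windows of the same length hold it on either strand. The motif TATAAA, searched in the same way, was in none of the 3 windows and is in 12.4% of all windows. A match is a description of the letters and not a binding site.

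The other 5 complement genes of the 68 did not pass the test. C3 was at 109%, 97.8% and 92.7% in LLC and at 183%, 102% and 114% in KPP, so the groups overlapped (log2 difference 0.37, limma adjusted p = 0.336). C7, a part of the membrane attack complex, had a difference of 0.26 and Cd55, which protects cells from complement, 0.02. C4a differed by -0.18, but its KPP values of 42.6%, 8.86% and 11.8% spanned a wider range than the LLC values of 14.9% to 25.1%. Adipsin, encoded by Cfd, cleaves factor B in the alternative route and is abundant in fat. It ranged from 50.3% to 105% in LLC and stood at 285%, 67.9% and 92.9% in KPP. KPP control A thus held a level of Cfd far from the others. Of the 12 complement genes tested, C1s and C1ra passed the test, the difference was positive for 9 and negative for 3, and the median difference over these 12 was 0.37 against 0.16 for all genes tested. Masp1, a protease of the lectin route and no member of the 68, had a difference of -1.15 at low level (limma adjusted p = 0.0842).

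H2-Eb1 had the largest difference of the 68. It was at 39.3%, 32.1% and 33.8% in LLC and at 112%, 44.4% and 85.7% in KPP. Every KPP control was higher than every LLC control, though KPP control B only just. The log2 difference was 1.11 with a 95% interval of 0.29 to 1.92, and it missed the threshold (limma adjusted p = 0.0914). Without KPP control B, the KPP sample nearest to LLC, it was 1.49 and passed (limma adjusted p = 0.00813). Leaving out any other sample gave no call for H2-Eb1. The antigen presentation list also holds H2-Ea-ps, Cd86 and Cd40, which were at the lower limit in every LLC control. H2-Eb1 was thus the only 1 of its 4 panel genes tested, and the list could not be read as a set.

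Retnla shared that pattern. It stood at 73.4%, 97.2% and 101% in LLC and at 199%, 73.7% and 201% in KPP, where A and C lay far above the LLC controls and B within their range. The difference was 0.68 (limma adjusted p = 0.311) with all samples and 1.16 without KPP control B (limma adjusted p = 0.0102). No other fit that left out a sample called Retnla. Arg1, another marker of alternatively activated macrophages, was at the lower limit in LLC, and Mrc1, a macrophage receptor, had a difference of 0.07 (limma adjusted p = 0.886). Cd163, the macrophage receptor for haemoglobin bound to haptoglobin and also no member of the 68, was at 6.56%, 4.75% and 5.43% in LLC and at 13.96%, 5.21% and 10.4% in KPP, where B was again lowest (0.72, limma adjusted p = 0.266).

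KPP controls differed from each other in a set of genes. The SD on the log2 scale was over 0.5 for 7 of the 68 genes in KPP, namely C4a, Cfd, Ifi27l2a, Retnla, Ccl21a, Rock2 and H2-Eb1, and for Cfd alone in LLC. All 7 were lowest in KPP control B, and 6 were highest in KPP control A. Among KPP controls, B was also lowest for many other genes of the 68, such as C3, Il1r1 and Tgfb2, where A was highest. Ccl21a, a chemokine of lymphatic vessels, was at 66.8%, 23.1% and 37.9% in KPP and between 24.2% and 27.7% in LLC. Ifi27l2a, an interferon-induced gene, was at 90.9%, 29.98% and 33.0% in KPP and at 28.9% to 47.9% in LLC. The summed level of the 9 connective tissue markers of the panel was also highest in KPP control A and, among KPP controls, lowest in B. It was 436%, 333% and 342% of the housekeeping mean in KPP controls A, B and C and 306% to 308% in LLC. Single markers did not all follow the sum. C3 did, at 183%, 102% and 114% in KPP, whereas C7, Pdgfa and Masp1 were highest in KPP control B. KPP control B was also the shallowest of the KPP controls, and the part of depth or of cell types in this spread was not tested. For the typical gene the groups were alike in spread, with a median SD of 0.11 in LLC and 0.13 in KPP on the log2 scale.

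**Figure D3:**
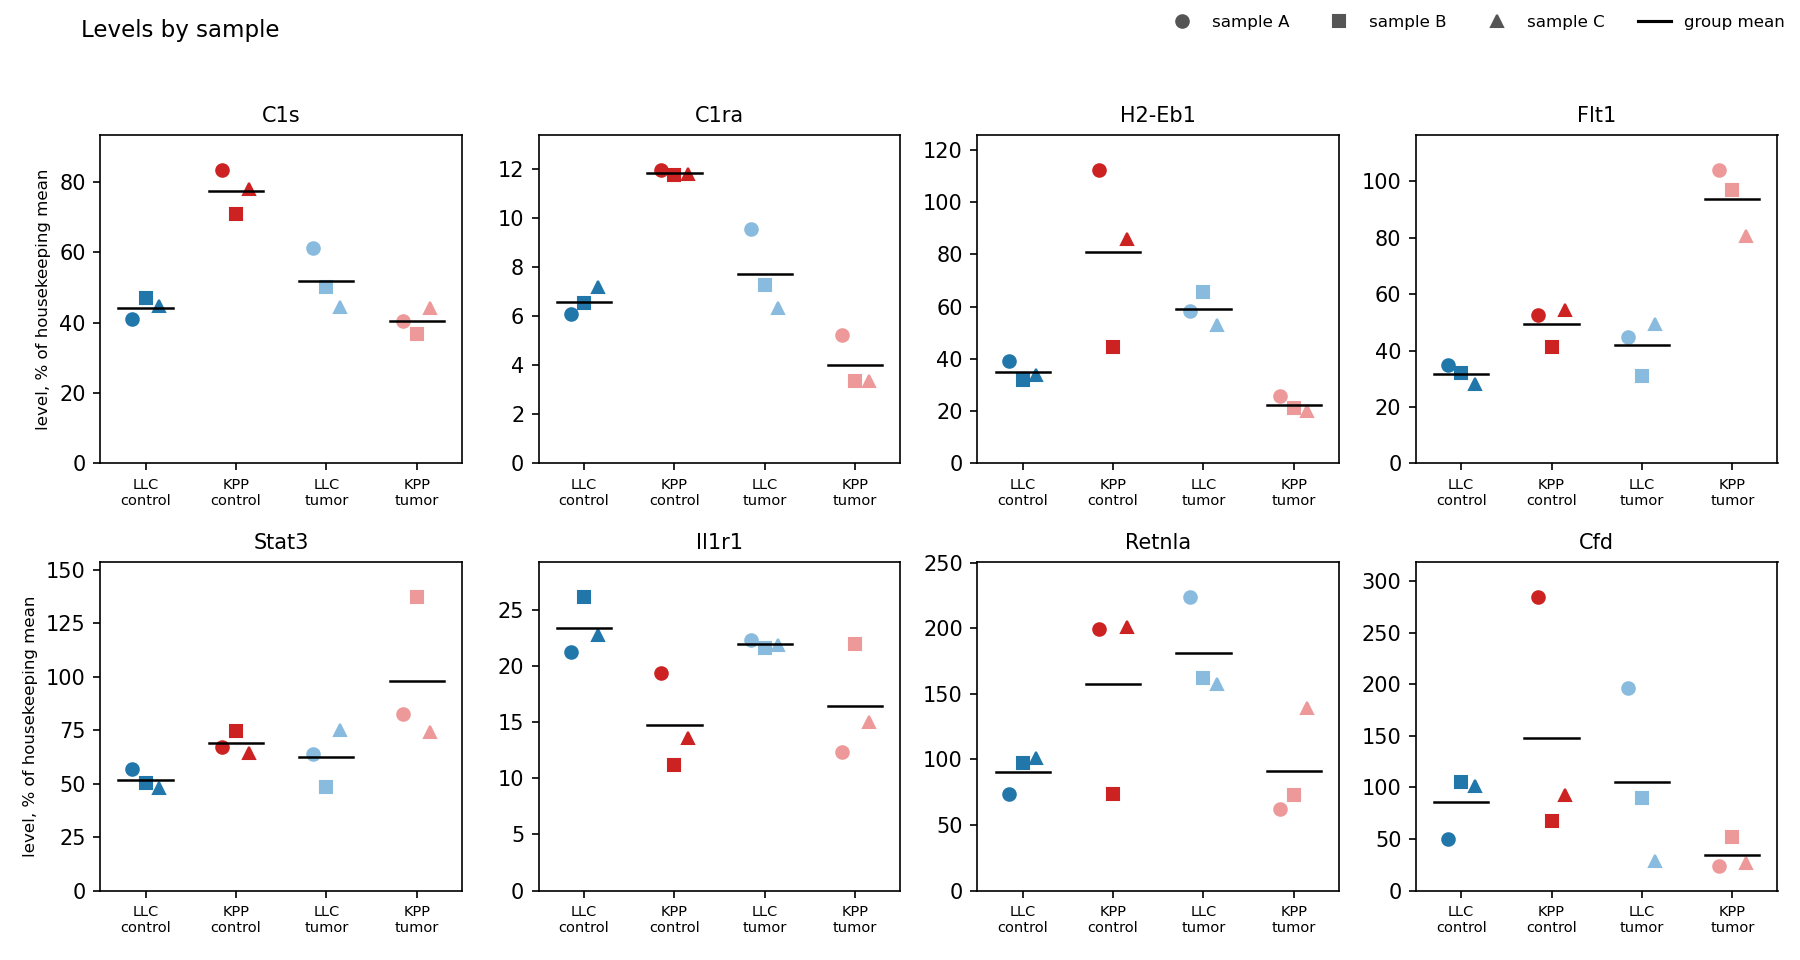
Each panel shows 1 gene as its level in every sample (vertical, % of the housekeeping mean, from 0) in the LLC and KPP control and tumor-bearing groups (horizontal), with symbols for samples A, B and C and a line for the group mean of 3. C1s and C1ra are higher in all 3 KPP controls than in all 3 LLC controls, while KPP control B falls below the other KPP controls for H2-Eb1 and Retnla.

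Among small GTPases, G proteins and their cytoskeletal effectors, 0 of 13 genes tested passed, and the difference was positive for all 12 of the 68 that belong here, with a median of 0.22 against 0.16 over all genes. After median centring or quantile normalization it was positive for 6 of the 12, and without Tubb5 for 10. Rac1, which drives actin at the cell edge, was at 323%, 282% and 270% in LLC and at 369%, 401% and 357% in KPP, with no overlap (0.37, limma adjusted p = 0.0914). Rapgef2, an exchange factor for Rap GTPases, was at 24.1%, 23.2% and 23.8% in LLC and at 31.7%, 39.998% and 29.9% in KPP (0.50, limma adjusted p = 0.0842). Both genes kept their direction in all 9 scalings. Gnb1, a G protein beta subunit, had 59.8% ± 4.42 and 76.1% ± 0.537, a difference of 0.35 with no overlap. Rock2, a kinase that acts on myosin below Rhoa, differed by 0.04 only, with KPP values of 53.0%, 18.9% and 32.7%, the widest spread of this group.

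Of the MAP kinase genes, 0 of 16 tested passed, and 9 of the 13 among the 68 had positive differences (median 0.10), a count that fell to 6 without Tubb5 (median -0.02) and to 4 with median centring (median -0.12). Mapkapk2 was at 186%, 174% and 178% in LLC and at 210%, 234% and 252% in KPP (0.37, limma adjusted p = 0.0881). The groups did not overlap. Grb2, an adaptor that couples receptors to Ras, was at 73.1%, 73.1% and 60.5% in LLC and within 90.4% to 90.8% in KPP (0.40, limma adjusted p = 0.0842). Rps6ka5, a nuclear kinase that p38 and ERK activate, had a negative difference, at 24.5%, 18.6% and 20.7% in LLC and at 12.6%, 17.8% and 14.8% in KPP (-0.50, limma adjusted p = 0.122). It is 1 of the 4 genes that lay wholly lower in KPP. The p38 kinase Mapk14 differed by 0.23, its activator Map2k6 by 0.10, the ERK kinase Map2k1 by -0.08 and Mapk3, which encodes ERK1, by -0.07.

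Of the 6 genes tested in the interleukin-1 and interleukin-6 routes, 0 passed. The difference was positive for 1, Stat3, and negative for 5, whereas 86 of all 118 genes tested had a positive difference. Of the negative genes, Il6ra, Il1rap and Myd88 were near the LLC lower limit of 20, with deposited LLC means of 34.15, 37.19 and 38.31. Their differences were -0.44, -0.34 and -0.15. Whether that limit and the apparent subtraction in KPP set their sign was not tested. Il1r1 was at 21.3%, 26.1% and 22.8% in LLC and at 19.4%, 11.2% and 13.6% in KPP, all lower than in LLC. Its difference was -0.70 with a 95% interval of -1.22 to -0.18 (limma adjusted p = 0.0914), and it passed with median centring (-0.91, limma adjusted p = 0.0483) and without KPP control A (-0.91, limma adjusted p = 0.0441). KPP control A was the KPP sample nearest to LLC, and leaving out any other sample gave no call for Il1r1. Stat3, the transcription factor below the interleukin-6 receptor, was at 56.98%, 50.1% and 47.8% in LLC and at 67.1%, 74.6% and 64.4% in KPP. The groups did not overlap (0.41, limma adjusted p = 0.0842). Cebpb, a factor of the acute phase, differed by -0.08. Of the NF-kB list, 0 of 12 genes tested passed. Tollip, an adaptor that dampens Toll-like receptor signaling, was at 51.8%, 53.7% and 45.4% in LLC and at 63.6%, 76.2% and 64.7% in KPP (0.44, limma adjusted p = 0.0842). Nod1, a sensor of bacterial cell wall, was at 17.9% ± 1.82 and 23.6% ± 1.13 (0.40, limma adjusted p = 0.0842). For Nfkb1 the difference was 0.20, for Map3k7, the kinase TAK1, 0.06 and for Birc2, a ubiquitin ligase, -0.02.

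In the muscle and MEF2 list 0 of 9 genes tested passed. Mef2c was at 506%, 476% and 485% in LLC and at 452%, 361% and 398% in KPP, with no overlap (-0.28, limma adjusted p = 0.195). Mef2d, of the same family, was at 105%, 119% and 106% in LLC and at 127%, 150% and 135% in KPP, also with no overlap but in the other direction (0.32, limma adjusted p = 0.123). Both kept their direction in all 9 scalings. Hspb1 was among the 8 genes with the smallest differences (-0.03, 95% interval -0.27 to 0.22), and Hspb2, another small heat shock gene, differed by 0.25. Nfatc3, a calcium-dependent factor, differed by 0.33 and Hdac4, a repressor of MEF2, by 0.13. Myl2, the slow-fiber myosin light chain, is not among the 68. Its level was 15.9%, 4.16% and 5.78% in LLC and 47.0%, 27.1% and 26.5% in KPP, a log2 difference of 2.15 that did not pass (limma adjusted p = 0.0842).

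Growth factors and their receptors gave 1 gene with a nominal difference among the 68. Flt1, a receptor for vascular endothelial growth factor on vessels, was at 34.9%, 32.1% and 28.0% in LLC and at 52.6%, 41.1% and 54.4% in KPP. The groups did not overlap, and the difference was 0.63 with a 95% interval of 0.27 to 1.00 (limma adjusted p = 0.0842). Without KPP control B, the KPP sample nearest to LLC, it was 0.76 and passed (limma adjusted p = 0.0199). No other fit that left out a sample called Flt1. Tgfb2 differed by 0.32, Smad7, an inhibitor of TGF-beta signaling, by 0.21, the receptor Tgfbr1 by -0.07, Pdgfa by -0.05 and Tgfb3 by -0.04. Csf1, the growth factor of macrophages, was below the filter in LLC and had a difference of 0.65 (limma adjusted p = 0.0842).

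Transcription factors of stress and early response had small differences. Of 10 genes tested 0 passed and 0 had an unadjusted p under 0.05, with a median of 0.07 over the 7 among the 68, which turned to -0.05 without Tubb5 and -0.14 with median centring. Atf2 was at 53.5%, 50.1% and 52.4% in LLC and at 62.4%, 43.3% and 48.6% in KPP, a difference of -0.03. Hif1a, the oxygen-sensitive factor, differed by 0.07 and Nr3c1, the glucocorticoid receptor, by 0.16. Jun differed by 0.07 with KPP values from 41.0% to 72.3%. Nfe2l2, which encodes NRF2, was at 56.3% ± 1.59 and 54.8% ± 0.417, a difference of -0.04 with a 95% interval of -0.24 to 0.17, and its inhibitor Keap1 differed by 0.14. The chromatin proteins Hmgb1 and Hmgn1 differed by 0.08 and 0.13 and the eosinophil chemokine Ccl11 by 0.22. None of these 9 genes passed the test.

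The tumor-bearing samples of the 2 models, which share no sample with the controls, were compared in a fit of their own over the same 118 genes. This called 6 of 118 genes, 5.08%, and 5 of the 68. Flt1 was higher in KPP, at 44.8%, 31.2% and 49.4% in LLC and 104%, 96.8% and 80.6% in KPP (1.19, limma adjusted p = 0.0474). C7 was lower, at 19.6%, 25.5% and 21.9% in LLC and 4.31%, 4.32% and 3.89% in KPP (-2.41, limma adjusted p = 0.000866). C3 was at 156%, 157% and 108% in LLC and at 41.6%, 44.2% and 49.4% in KPP (-1.62, limma adjusted p = 0.0142). H2-Eb1, which had the largest positive difference of the 68 in controls, was lower in KPP here, at 58.3%, 65.7% and 52.9% in LLC and 25.7%, 21.2% and 20.1% in KPP (-1.40, limma adjusted p = 0.0147). Ifi27l2a was lower too (-2.20, limma adjusted p = 0.0234). In each of the 5 genes the groups did not overlap, which is no further support, since the test on the same samples chose them. Leaving out LLC tumor-bearing A or B or KPP tumor-bearing C ended all of these calls except that of C7, and without KPP tumor-bearing B 3 of them were made. The Flt1 call was not made in any of the 6 fits that leave out a sample, nor in 6 of the 9 other scalings.

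C1s did not pass the test in tumor-bearing samples. It was at 61.2%, 50.02% and 44.5% in LLC and at 40.4%, 36.7% and 44.3% in KPP, a log2 difference of -0.35 (limma adjusted p = 0.332), and for C1ra the difference was -0.96 (limma adjusted p = 0.143). Over the 68 genes, 41 had the same sign in tumor-bearing samples as in controls, and 15 of the 18 with an unadjusted p under 0.05 in controls did. The 2 comparisons share the housekeeping scale, and the median difference was 0.29 here and 0.16 in controls. Il1r1 was at 22.3%, 21.6% and 21.9% in LLC and at 12.3%, 21.96% and 15.04% in KPP (-0.46, limma adjusted p = 0.325), with KPP tumor-bearing B at the LLC level.

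**Figure D4:**
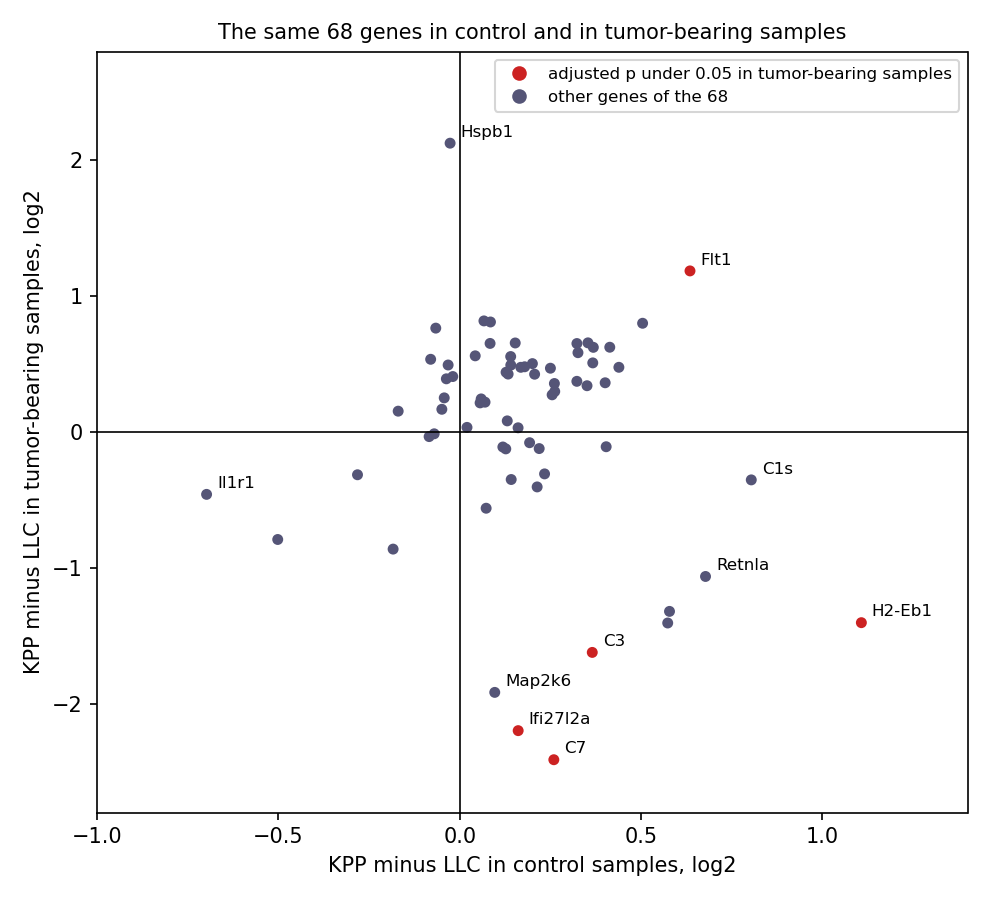
Each point is 1 of the 68 genes, with the log2 difference KPP minus LLC in controls (horizontal) and in tumor-bearing samples (vertical), each from 3 against 3 samples, and red for an adjusted p under 0.05 in tumor-bearing samples. Flt1 is positive in both (0.63 and 1.19), while H2-Eb1, C3, C7 and C1s are positive in controls and negative in tumor-bearing samples.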

How the data were processed

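RNA of TA muscle, 100 ng a sample per the labels, was hybridised to nCounter inflammation probes for mouse, in which probes are counted without amplification. Deposited values hold a normalized signal. No label states how it was normalized. Read from the values, the 6 housekeeping genes have 1 geometric mean within each model (591 in LLC, 1769 in KPP), a separate scaling for either model. Low values lie on steps of a size proper to each sample (100% within a tolerance of 0.1), which gave the counts. The lower limit in LLC and what looks like a subtraction in KPP kept genes from being turned back into whole counts, so no count test was run. Cartridge and run are not stated in the labels. Intervals of depth cover counting error only.

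Each value was divided by the housekeeping geometric mean of its sample and taken to log2. limma 3.58.1 (R 4.3.3; lmFit, eBayes, two-sided) compared 3 with 3 samples, and was tested on simulated data. Ranks use group means. Tables and figures used Python 3.11.15, pandas 2.3.3, numpy 2.4.6 and matplotlib 3.10.9. Alternatives changed the scale, pseudocount, filter, variance model, samples and a replicate block. Genes named in the text were, by rule, the strongest, the largest and smallest differences, those at the threshold, the largest moves of rank and the members of pathway and marker lists. Members and lists were chosen with earlier results of these data known. Names were matched to RefSeq (71 of 72 by symbol, C1s by synonym), and Mef2c_Mm is written Mef2c. Single-gene values of 2 of the 68 genes are not reported here.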

Additional observations from a re-analysis of the deposited data

Results flagged for a closer look

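For 4 of the 68 genes the difference between the models was not the same in tumor-bearing as in control samples, by limma's test of the difference itself over 12 samples. It called 6 of the 118 genes tested, 5.08%, and the other 2 were C1ra (-1.81, limma adjusted p = 0.00256) and Masp1 (1.86, limma adjusted p = 0.0216), which are not among the 68. This test is, by algebra, the same as that of a tumor effect that differs between models. Masp1 was at the lower limit of 20 in LLC tumor-bearing A and B, at 3.38% of the housekeeping mean in each. These Masp1 values are only upper bounds and understate its spread, since the filter on low values used controls alone. C1ra was near the limit too, with a deposited LLC control mean of 39.06. For C7 the KPP minus LLC difference in tumor-bearing samples minus that in controls was -2.67 ± 0.226 (SE, log2; limma adjusted p = 1.72e-05). For H2-Eb1 it was -2.51 (limma adjusted p = 0.00256), from 1.11 in controls to -1.40 in tumor-bearing samples. For C3 it was -1.99 (limma adjusted p = 0.00256), and for C1s -1.16 ± 0.227 (limma adjusted p = 0.00822), from 0.80 to -0.35.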

How the results depend on the processing

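The count of 1 control gene called was the same with 4 housekeeping genes, without Cltc, Gapdh, Gusb, Hprt or Pgk1, under quantile normalization, with pseudocounts of 1 and 20, with the 68 genes alone, with the same relative threshold, with thresholds of 50 and 200 and with 12 samples in the fit. The threshold settings change only which genes are counted. The fit of 118 genes was the same under them, so they could not move the C1s test. The count was 0 without Tubb5, 2 with median centring (C1s and Il1r1), 4 with 20 subtracted from LLC values, 3 with no filter on low genes, 10 with a trended and robust variance and 0 with 18 samples. Leaving out 1 sample gave 0 to 4 calls: 0 without any LLC control or KPP control C, 2 without KPP control A and 4 without KPP control B. C1s stayed between 0.58 and 0.87 over 24 settings (limma adjusted p = 0.00372 to 0.446 over all of them). It passed in 17 of these, and C1ra passed in 16 of 23. Whether the letters pair the samples cannot be settled from these values. Same-letter correlations of the deviations from the group means were -0.57, -0.22 and -0.24, but the deviations within a group are bound to each other. The replicate block gave 0 calls in controls and 6 in tumor-bearing samples. The 5 calls in tumor-bearing samples were 8 with no filter, 3 with the threshold of 200 and 10 (5 up) with 12 samples, and leaving out 1 sample gave 1 to 7. The split of 1 up and 4 down became 0 up and 4 down in 6 of 9 scalings. No gene reversed a call. Causes of these changes were not tested. Genes at the LLC limit of 20 have only an upper bound there, and 3 samples a group limit the precision.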
